A study of Mus musculus with 9 samples.

Results

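The mouse genes examined here are 10 markers of the pyramidal neurons of CA1, the main output field of the hippocampus proper. They were taken by gene symbol, and each of Wfs1, Fibcd1, Itpka, Pou3f1, Mpped1, Gpr161, Ndst4, Man1a, Dkk3 and Nr2f2 had 1 entry among the 18275 genes of the deposited table. Bulk RNA was measured in the hippocampus of adult male C57BL/6N mice, in 4 Nestin;BrafKE/+ animals and 5 Braf+/+ animals, with 1 library per animal. Nestin;BrafKE/+ mice carry 1 Braf allele with the K499E change, which makes the kinase more active. It is floxed and becomes expressed once Nestin-Cre has acted in embryonic neural stem cells, so neurons, astrocytes and oligodendrocytes that descend from them can all carry it. CA1 neurons were thus not the only cells with the mutant kinase. Braf+/+ mice have the normal gene on both alleles, and whether the 5 animals sequenced carried Nestin-Cre is not given in the sources used here.

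CA1 pyramidal neurons are excitatory cells that receive input from CA3 and from the entorhinal cortex and send axons to the subiculum and beyond. They differ from the pyramidal cells of CA3 and CA2 and from dentate granule cells in a set of transcripts, and Wfs1, which is dense in the cell bodies and dendrites of dorsal CA1, is a commonly used marker of the field. The other genes are less strictly tied to it. Nr2f2, for example, is also expressed in interneurons and in the ventral hippocampus. If the share of CA1 tissue differed between dissections, transcripts made mainly in CA1 would move together, so the question asked of the table was how much of the difference between genotypes the 10 genes shared and how much belonged to single genes.

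Wfs1 was 1.53-fold, Fibcd1 1.32-fold and Itpka 1.24-fold higher in Nestin;BrafKE/+, and these 3 of 10 passed the test, where 2.88% of all genes tested passed and 1.52% passed with a higher level in the mutants. The other 7 markers did not, and their fitted log2 fold changes lay between -0.22 for Gpr161 and 0.19 for Man1a. The 95% interval of Wfs1 overlapped that of Fibcd1 and lay apart from those of the other 8 members. In bulk tissue, fewer cells of a type and less RNA per cell cannot be told apart, and the same holds for more cells and more RNA per cell.

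Library names in the labels share 3 kinds of beginning, and the libraries were sorted by these into the series A (mutant replicate 1 with control replicates 1 to 3), B (mutant replicates 2 and 3 with control replicate 4) and C (mutant replicate 4 with control replicate 5). Values are normalised counts, scaled by the authors to a common library size after batch adjustment, and summed to between 19550000 and 20090000 per library, so the number of reads behind them is unknown. Each fold change is a log2 difference of (normalised count + 1), Nestin;BrafKE/+ minus Braf+/+, from 1 limma fit over 16196 genes with genotype and series as terms. Adjusted p-values are two-sided, from the Benjamini-Hochberg method over all 16196 genes, with a threshold of 0.05. Braf+/+ replicate 2 stood apart in choroid plexus transcripts. Without it alone, the same 3 members passed.

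The lowest value of any of the 10 markers in any library was 499, in a table that holds no zeros and whose smallest value is 0.9934. Divided by the length of 1 transcript per gene (the canonical transcript of Gencode vM39), the mean level in Braf+/+ was highest for Itpka, at 2090 normalised counts per kb, and then fell through Dkk3 (1218), Mpped1 (1106), Wfs1 (628), Fibcd1 (562), Pou3f1 (304), Man1a (259), Gpr161 (207) and Nr2f2 (162) to Ndst4 (85.5). Of the 9 neighbouring pairs in this order, 3 had overlapping ranges over the 5 libraries (Pou3f1 with Man1a, Man1a with Gpr161, and Gpr161 with Nr2f2). The order rests on 1 transcript length per gene and was not tested.

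Wfs1 encodes wolframin, a membrane protein of the endoplasmic reticulum that takes part in calcium handling and the stress response of that organelle. Its normalised count was 3640.3, 3521, 3626 and 3752 in Nestin;BrafKE/+ replicates 1 to 4, and 2364, 2350.4, 2407, 2459.6 and 2304 in Braf+/+ replicates 1 to 5. The lowest mutant library was thus far above the highest control library, and the values within each genotype lay close together. The group means were 3635 ± 94.6 (SD, n = 4) and 2377 ± 59.1 (SD, n = 5). This gave a log2 fold change of 0.61 (SE 0.0479, 95% interval 0.51 to 0.72, limma adjusted p = 0.000371). Within series A, B and C the log2 differences were 0.62, 0.54 and 0.70, so each series alone gave a rise of this order. The gene lies on chromosome 5 from 37106176 to 37153872 on the minus strand (GRCm39). Ppp2r2c, which overlaps it on the opposite strand, had a log2 fold change of -0.06 (limma adjusted p = 0.443), and the libraries were made with a stranded kit, though the strand setting of the counting is not given in the sources used here.

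Fibcd1 encodes a membrane receptor that binds chitin and acetylated sugars. It measured 3752, 4237, 4031 and 3727 in Nestin;BrafKE/+ replicates 1 to 4, against 3166, 3143, 2794, 2702 and 3151 in Braf+/+ replicates 1 to 5. All 4 mutant libraries lay above all 5 control libraries, but the spread within a genotype was wider than for Wfs1, with a coefficient of variation of 6.18% and 7.51% against 2.60% and 2.48%. The means were 3937 ± 243 (SD, n = 4) and 2991 ± 225 (SD, n = 5), and the log2 fold change was 0.40 (SE 0.0723, 95% interval 0.24 to 0.56, limma adjusted p = 0.0182). The differences within series A, B and C were 0.31, 0.61 and 0.24. The gene occupies chromosome 2 from 31702948 to 31736233 on the minus strand (GRCm39), and no annotated gene overlaps it.

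Itpka encodes inositol-trisphosphate 3-kinase A, an enzyme of dendritic spines that also binds actin filaments. Values of 4714, 5237, 4803 and 4910.4 in Nestin;BrafKE/+ replicates 1 to 4 stood against 4109.5, 3777, 4162, 3801 and 3964 in Braf+/+ replicates 1 to 5. Again no mutant library fell within the range of the controls. Its means were 4916 ± 229 (SD, n = 4) and 3963 ± 175 (SD, n = 5), with a log2 fold change of 0.31 (SE 0.0556, 95% interval 0.19 to 0.43, limma adjusted p = 0.0176). The series differed less among themselves than for Fibcd1, with 0.23, 0.40 and 0.31 in A, B and C. Itpka lies on chromosome 2 from 119572740 to 119591984 on the plus strand (GRCm39). Ltk, on the opposite strand, had a log2 fold change of 0.09 (limma adjusted p = 0.752).

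**Figure D1:**
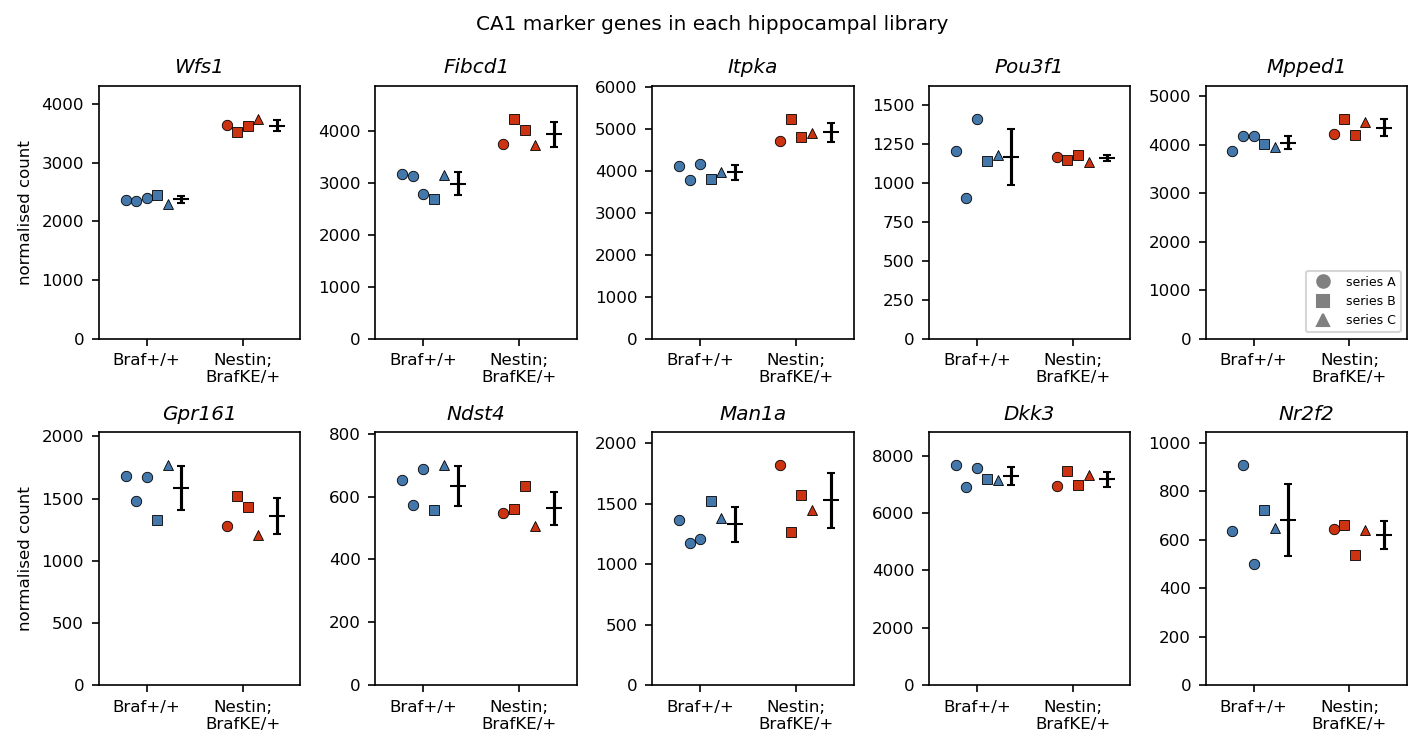
Normalised count (vertical axes from 0) of each of the 10 CA1 markers in the 5 Braf+/+ libraries (blue) and the 4 Nestin;BrafKE/+ libraries (red), with the marker shape giving the series of the library and the bars giving mean and SD. Wfs1, Fibcd1, Itpka and Mpped1 have no overlap between genotypes, narrowly so for Mpped1, whereas the groups overlap for the other 6 genes.

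With 4 libraries against 5, a two-sided exact permutation test over the 126 splits cannot go below p = 0.00794, and one over the 24 splits that keep each series intact cannot go below 0.0417. Wfs1, Fibcd1 and Itpka each gave both of these smallest values. The groups did not overlap for 4 of 10 markers, against 15.7% of all genes tested. The median log2 fold change was 0.05 over the 10 markers and 0.0003 over all genes, with 6 markers higher and 4 lower. Of the 6, Pou3f1 was higher by 0.0011 only and turned lower in several other fits.

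The sequences just before the transcription starts of the 3 called genes are shown so that their composition can be compared. Each is the 250 bases upstream of the RefSeq start, 5′ to 3′ on the strand of the gene, on GRCm38.p6. That build is older than the one used for the gene positions above. The windows are chr5:36988983-36989232 (minus strand) for Wfs1, chr2:31846006-31846255 (minus strand) for Fibcd1 and chr2:119742087-119742336 (plus strand) for Itpka. Capitals mark matches to any of the motifs named after them.
Wfs1: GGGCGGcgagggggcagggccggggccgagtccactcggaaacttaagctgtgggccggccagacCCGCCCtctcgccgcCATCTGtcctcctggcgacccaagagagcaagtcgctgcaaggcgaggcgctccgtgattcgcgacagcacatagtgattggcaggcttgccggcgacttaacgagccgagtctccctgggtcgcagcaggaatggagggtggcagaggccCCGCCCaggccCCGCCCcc
Fibcd1: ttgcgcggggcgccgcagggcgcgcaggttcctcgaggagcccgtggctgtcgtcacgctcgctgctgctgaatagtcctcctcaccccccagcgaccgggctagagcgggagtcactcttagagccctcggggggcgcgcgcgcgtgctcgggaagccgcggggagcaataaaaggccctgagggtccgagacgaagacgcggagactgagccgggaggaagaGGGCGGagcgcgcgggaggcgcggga
Itpka: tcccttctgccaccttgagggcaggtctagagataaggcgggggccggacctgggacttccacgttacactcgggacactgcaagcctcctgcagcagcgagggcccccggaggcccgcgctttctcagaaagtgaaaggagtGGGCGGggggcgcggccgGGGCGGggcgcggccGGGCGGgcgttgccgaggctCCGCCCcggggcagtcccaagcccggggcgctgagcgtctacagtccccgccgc
A window was found for 7 of the 10 members. Both strands were searched (CCGCCC and CATCTG are motifs read on the other strand) for 4 motifs of factors downstream of ERK signalling or of neuronal activity, given here with the share of 16442 windows of 12883 genes that hold each one: ETS CCGGAAG (11.3%), AP-1 TGANTCA (4.63%), CRE TGACGTCA (2.32%) and EGR GCGNGGGCG (8.20%). None of the 4 was found in these 3 windows, and of the 7 members with a window only Mpped1 held one, EGR. Another 3 motifs were added after this was seen, the GC box GGGCGG (53.4% of windows), an E-box CAGATG (10.9%) and the TATA box TATAAA (6.99%). The GC box, which overlaps EGR in sequence, was found 4 times for Wfs1, 4 times for Itpka and 1 time for Fibcd1, and the E-box 1 time for Wfs1. The 3 windows have GC boxes as most windows do, and a match is a description, not a site of binding.

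Mpped1, which encodes a metallophosphoesterase domain protein enriched in brain, was the fourth gene with separate groups. It measured 4221, 4536, 4200.1 and 4465 in Nestin;BrafKE/+ and 3879, 4194, 4190.3, 4026 and 3947 in Braf+/+, in replicate order. The lowest mutant and the highest control library almost touched. Its log2 fold change was 0.11 (95% interval -0.01 to 0.22, limma adjusted p = 0.308), and the exact permutation p was 0.0317 over all splits and 0.0833 within series.

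Man1a, a Golgi mannosidase that trims N-linked sugars, spread widely. It was 1817, 1267, 1574 and 1452 in Nestin;BrafKE/+ replicates 1 to 4, and 1365, 1174, 1206, 1526 and 1383 in Braf+/+ replicates 1 to 5. Only mutant replicates 1 and 3 exceeded every control. The log2 fold change of 0.19 (95% interval -0.07 to 0.45, limma adjusted p = 0.424) was made up of 0.54 in series A, -0.11 in series B and 0.07 in series C. Without Nestin;BrafKE/+ replicate 1, the only mutant library of series A, it was -0.03.

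Pou3f1 encodes a POU-domain transcription factor, also called Oct6 or SCIP, that is classically used to mark CA1 pyramidal cells in the developing and adult brain. The 4 mutant libraries were nearly identical, at 1165, 1147, 1182 and 1138. In Braf+/+ replicates 1 to 5 the counts were 1206, 902, 1412, 1144 and 1178, so that replicates 2 and 3 lay far outside the mutant range on either side of it, and replicate 1 just above it. The coefficient of variation was 1.69% in the mutants and 15.6% in the controls. The log2 fold change was 0.0011 (95% interval -0.25 to 0.25, limma adjusted p = 0.997). An increase in Pou3f1 as large as the fitted value of Wfs1 lay outside this interval, and so did the fitted values of Fibcd1 and Itpka.

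Dkk3, a secreted protein of the Dickkopf family, gave a narrow interval around 0. It was 6936, 7468, 6990.5 and 7332 in Nestin;BrafKE/+, and 7664, 6910.1, 7562, 7203 and 7144 in Braf+/+, with the mutant values inside the control range throughout. Its log2 fold change was -0.02 (95% interval -0.14 to 0.09, limma adjusted p = 0.854). A rise of the size fitted for any of Wfs1, Fibcd1 and Itpka was outside this interval too.

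Gpr161 is an orphan receptor of the primary cilium that holds back Hedgehog signalling. It had 1279, 1521, 1432 and 1209 in the mutants and 1678, 1477, 1669.6, 1329.7 and 1766 in the controls. Mutant replicates 1 and 4 lay below all controls and the other two did not. The log2 fold change was -0.22 (95% interval -0.45 to 0.01, limma adjusted p = 0.297), with -0.33 in series A, 0.15 in series B and -0.55 in series C. Without Braf+/+ replicates 2 and 4 together, a choice made after the data had been seen, it was -0.46 (SE 0.0706, limma adjusted p = 0.0446). Series B, where the difference was 0.15, has no control library in that fit.

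Ndst4, an enzyme that removes acetyl groups from heparan sulfate and adds sulfate in their place, ran close to Gpr161. The values were 548, 561, 634 and 506.5 in Nestin;BrafKE/+ and 652, 574, 687, 558 and 699.6 in Braf+/+. Here as well 2 mutant libraries were below every control. Its log2 fold change was -0.17 (95% interval -0.40 to 0.06, limma adjusted p = 0.415), and series B again differed in sign, with -0.21, 0.10 and -0.47 in A, B and C. Whether the series truly differed for Gpr161 or Ndst4 was not tested.

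Nr2f2 encodes COUP-TFII, a nuclear receptor. Its counts were 646, 659.6, 536 and 638 in the mutants and 635, 906, 499, 723 and 649.5 in the controls. Braf+/+ replicate 2 held the highest value and Braf+/+ replicate 3 the lowest, so the mutant range lay inside the control range. The log2 fold change of -0.12 had a 95% interval from -0.47 to 0.23 (limma adjusted p = 0.739), the widest of the 10. For B130024G19Rik, on the opposite strand and expressed at a far lower level, it was -0.70 (limma adjusted p = 0.465).

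**Figure D2:**
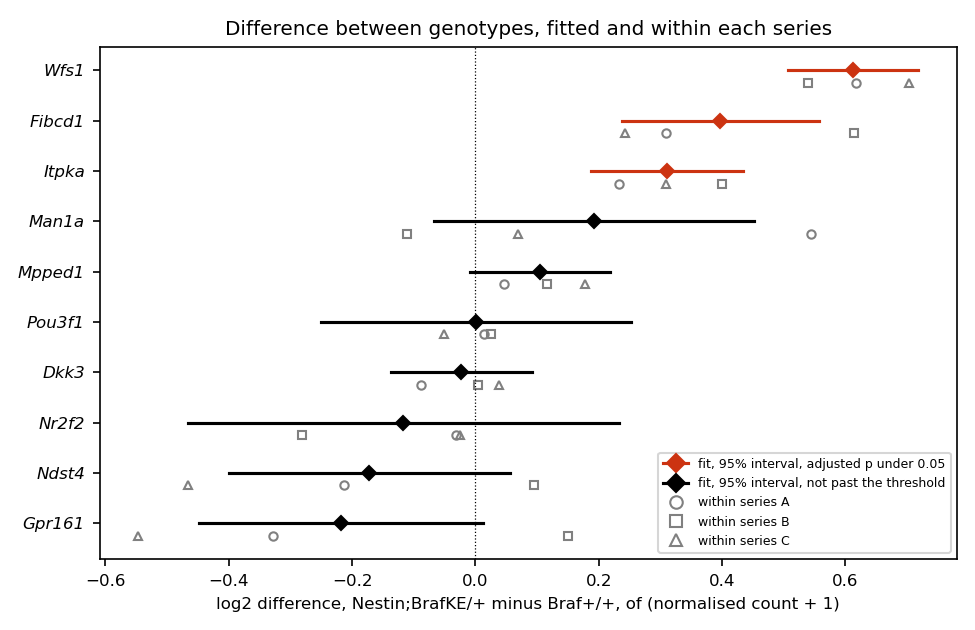
Log2 difference of (normalised count + 1), Nestin;BrafKE/+ minus Braf+/+, for each CA1 marker, with the fitted value and its 95% interval (diamond and line, red where the adjusted p was under 0.05) and the difference within each series (open symbols). Wfs1, Fibcd1 and Itpka lie to the right of 0 in all 3 series, while Gpr161, Ndst4 and Man1a have series on both sides of it.

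To set a shared factor beside gene-specific change, each gene's log2 values were centred on the gene's mean over the 9 libraries and their variation was divided into parts. The mean of the 10 centred genes in a library took 10.5% of the total sum of squares. A factor acting equally on all 10 genes would move this mean, and its part between genotypes took 8.6%. The departure of single genes from that mean between genotypes took 46.8%. Variation within genotypes took 44.6%. Wfs1 alone gave 27.0% of the total as its difference between genotypes and 0.3% as its spread within them, Fibcd1 gave 11.4% and 2.3%, and Itpka 7.0% and 1.0%. For Nr2f2 the order was the opposite, with 1.0% between and 14.5% within. These shares describe these 10 genes and carry no test. The genes are not equally tied to CA1, so a change in CA1 share could enter both the mean and the departures from it. Such a change was not tested.

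The mean of the 10 centred genes was 0.06, 0.09, 0.07 and 0.03 in Nestin;BrafKE/+ replicates 1 to 4, and -0.02, -0.08, -0.05, -0.08 and -0.02 in Braf+/+ replicates 1 to 5. All mutant libraries were above all controls, by a mean of 0.11. The 3 called genes made up this difference. Over the other 7 members, the same mean was -0.02 in Nestin;BrafKE/+ and 0.01 in Braf+/+, and no mutant library was above all controls. These 7 were set apart because they did not pass in the same libraries. The small difference in their mean partly follows from that choice. Measured against the mean of the other 9 markers in the same library, Wfs1 was still 0.56 higher in the mutants, Fibcd1 0.32 and Itpka 0.22, each with all 4 mutant libraries above all controls. Mpped1 was level with the rest at -0.004. Dkk3 was 0.15 lower relative to the other 9, with all 4 mutant libraries below all controls, and Gpr161 and Ndst4 were 0.36 and 0.31 lower with 3 of 4 below. Since the 3 called genes are part of the mean against which the others are read, those lower values partly restate the rise of Wfs1, Fibcd1 and Itpka.

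The ratio of Wfs1 to each other marker gives the same comparison without a mean. Taken on the log2 scale, it was higher in Nestin;BrafKE/+ for all 9 partners, from 0.21 with Fibcd1 to 0.83 with Gpr161, and mutant and control libraries were fully separate for 8 of the 9. The exception was Fibcd1, for which 2 of 4 mutant libraries were above all controls. A factor that acts equally on both genes cancels in such a ratio. One that acts unequally, as a change in CA1 share may, does not cancel and was not tested. The ratios share Wfs1, which was taken as reference for its large difference, so they are given as a description without a test.

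The genes whose levels ran most like Wfs1 over the 9 libraries, among 13230 genes whose mean value was 50 or more, were Cspg4 (Pearson r = 0.996), Dusp4 (0.994) and Septin8 (0.988). Cspg4 is the NG2 proteoglycan of oligodendrocyte precursors and Dusp4 a phosphatase that acts on MAP kinases. Their log2 fold changes were 0.65 (limma adjusted p = 0.00261) and 0.95 (0.00106), and that of Septin8, a cytoskeletal GTPase, was 0.17 (0.0542). With 9 points in 2 genotypes such correlations mostly restate the difference between the genotypes, so they stand as a description.

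Another 5 genes with CA1 expression were mostly higher in Nestin;BrafKE/+. Pex5l, which encodes a protein that controls the surface level of HCN channels, was 5081 to 5207 in Nestin;BrafKE/+ and 4203 to 4458 in Braf+/+, with a log2 fold change of 0.26 (SE 0.0436, limma adjusted p = 0.0146). Sstr4 (0.21), Lefty1 (0.23) and Ccn3 (-0.05) did not pass. In all, 1 of 5 passed and the median was 0.23, against 0.05 for the 10 markers. The mean of the 5 centred genes was 0.06 to 0.16 in the mutant libraries and -0.19 to -0.03 in the controls. The genotypes were thus fully separate in this mean, with a difference of 0.20. Whether a change in CA1 share lay behind it was not tested. With the level of these 5 genes in each library as a covariate, the log2 fold change was 0.67 (SE 0.103) for Wfs1, 0.30 (SE 0.152) for Fibcd1 and 0.16 (SE 0.109) for Itpka, and in that limma fit 0 of all genes passed, with 1201 at an unadjusted p under 0.05. Among 4 genes enriched in the ventral hippocampus, Grp, a gastrin-releasing neuropeptide, was 673 ± 26.8 (SD, n = 4) against 321 ± 49.2 (SD, n = 5), a log2 fold change of 1.08 (limma adjusted p = 0.00193). Dcn (0.26), Gpc3 (-0.0007) and Htr2c (-0.10) were not past the threshold.

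The neighbouring fields had list medians below 0, with genes on both sides of 0 in each list. For CA2 and CA3, 0 of 13 genes passed in the limma fit and 5 had an unadjusted p under 0.05. The median log2 fold change was -0.15, with 6 genes higher and 7 lower. Of 12 dentate granule cell genes, Plk5 (-2.58), Dsp (-0.78), Stxbp6 (-0.41) and Lct (-0.39) fell and Calb1 (0.43) rose. The list median was -0.08, with 5 genes higher and 7 lower in all. Prox1 (-0.05) and C1ql2 (0.04), among those that did not pass, were close to 0. Calb1 encodes calbindin, a calcium buffer that is also present in a part of the CA1 pyramidal cells. Of 7 genes shared by excitatory neurons, Neurod2 fell by 0.53 on the log2 scale and the other 6 did not pass. Among these, Emx1 (-0.35), Tbr1 (-0.23) and Slc17a7 (-0.10) were lower, and Nrgn (0.20), Neurod6 (0.15) and Camk2a (0.07) higher. The list median was -0.10, and 4 of the 7 had an unadjusted p under 0.05 in limma. Of 4 neocortical and 6 thalamic genes, included because adjacent tissue can be dissected along, 0 passed in limma, with 0 and 1 at an unadjusted p under 0.05.

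**Figure D3:**
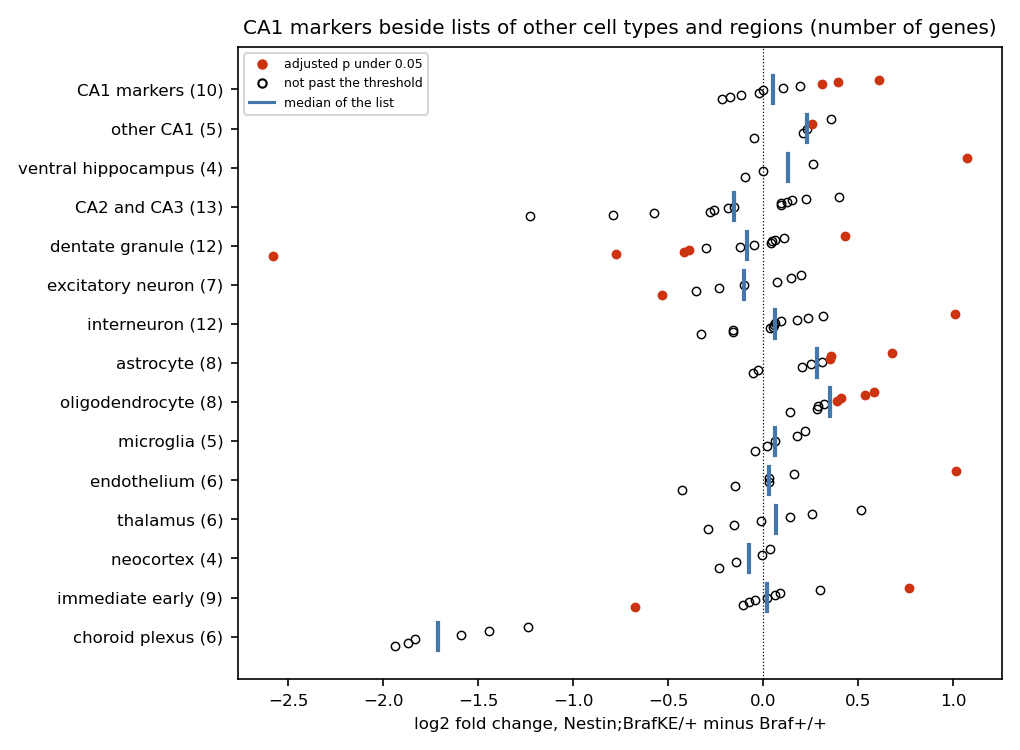
Log2 fold change, Nestin;BrafKE/+ minus Braf+/+, of every gene in the CA1 marker list and in 14 lists of other cell types, regions and states, with filled red points for an adjusted p under 0.05 and a blue bar at each list's median. The CA1 markers spread on both sides of 0 with a median of 0.05, the oligodendrocyte genes all lie above 0, and the 6 choroid plexus genes all lie below -1.

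Some genes of other cell types passed as well. The oligodendrocyte list had 4 of 8 genes past the threshold, Mobp, Mog, Mag and Cldn11, all higher, with a median of 0.35. With 1 library left out, the call was lost in 3 of 9 fits for Cldn11, 4 for Mobp, 5 for Mog and 8 for Mag. Its summed normalised count was 126834 to 136901 in Nestin;BrafKE/+ and 92690.2 to 112210 in Braf+/+. Of 8 astrocyte genes, Gfap (0.68), S100b (0.36) and Aldoc (0.35) rose, with a list median of 0.28. Among the 5 that did not pass, Aldh1l1 (0.31), Aqp4 (0.25) and Slc1a3 (0.20) were higher, and Slc1a2 (-0.06) and Gja1 (-0.03) lower. An unadjusted p under 0.05 was found for 6 of the 8 in limma. The 12 interneuron genes had a median of 0.06, with 9 higher and 3 lower, and only Npy passed, with a rise of 1.01 on the log2 scale. The 6 endothelial genes had a median of 0.03, with 4 higher and 2 lower, and only Vwf passed, with a rise of 1.02. In the microglial list 0 of 5 genes passed in the limma fit, where 2 had an unadjusted p under 0.05. Of 9 immediate early genes, Arc rose by 0.77 and Fos fell by 0.67 on the log2 scale, with the call of Fos lost in 8 of the 9 fits that leave out a library. With the oligodendrocyte level of each library as a covariate, the log2 fold change of Wfs1 was 0.64 (SE 0.0977), that of Fibcd1 0.43 (SE 0.152) and that of Itpka 0.30 (SE 0.116), with limma adjusted p = 0.244, 0.781 and 0.812. In that fit 0 of all 16196 genes passed, and 930 had an unadjusted p under 0.05.

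The choroid plexus, which lies against the hippocampus and is not part of it, varied most. Each of its 6 genes had a negative log2 fold change, with a median of -1.71, but 0 passed and 2 had an unadjusted p under 0.05 in limma. The summed count was 1374 to 24099 in the mutants and 4451 to 391566 in the controls, with the highest in Braf+/+ replicate 2. In the same library Nr2f2 was at its highest and Itpka, Pou3f1, Man1a and Dkk3 were at their lowest of the 9. Braf+/+ replicates 2 and 4 had the highest level of this list. Without both, Wfs1 had an adjusted p of 0.0104 in limma, while Fibcd1 (log2 fold change 0.30, 0.138) and Itpka (0.24, 0.156) no longer passed and Gpr161, as given above, did, so that 2 members were called and they were not the same ones as with all libraries. That fit had 3 control libraries and none in series B, so mutant replicates 2 and 3 gave no contrast within their series. The choroid plexus level and the loss of series B cannot be told apart in it.

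Leaving out 1 library at a time, Wfs1 passed in all 9 fits, with a log2 fold change from 0.58 to 0.65 and an adjusted p no higher than 0.0125 in limma. Fibcd1 did not pass without Braf+/+ replicate 4 (limma adjusted p = 0.105), Nestin;BrafKE/+ replicate 1 (0.0742) or Nestin;BrafKE/+ replicate 3 (0.0592). Its log2 fold change was 0.28 to 0.45 over the 9 fits. Itpka did not pass without Braf+/+ replicate 4 (limma adjusted p = 0.112) or Nestin;BrafKE/+ replicate 1 (0.0675), and its range was 0.26 to 0.36. Both genes therefore kept their direction, and of the 10 members Wfs1 alone kept its call whichever library was left out. Nestin;BrafKE/+ replicate 1 was the only mutant library of series A, and Braf+/+ replicate 4 the only control of series B. Without either of them, the whole series gives no contrast between genotypes, so these fits lose more than 1 library. Of the 19 genes of other lists that were called, Grp, Npy and Plk5 passed in all 9 fits as Wfs1 did. Another 10, Pex5l among them, did not pass in 1 to 3 fits, and 6 did not pass in 4 or more (Fos, Mag, Mog, S100b, Vwf and Mobp).

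**Figure D4:**
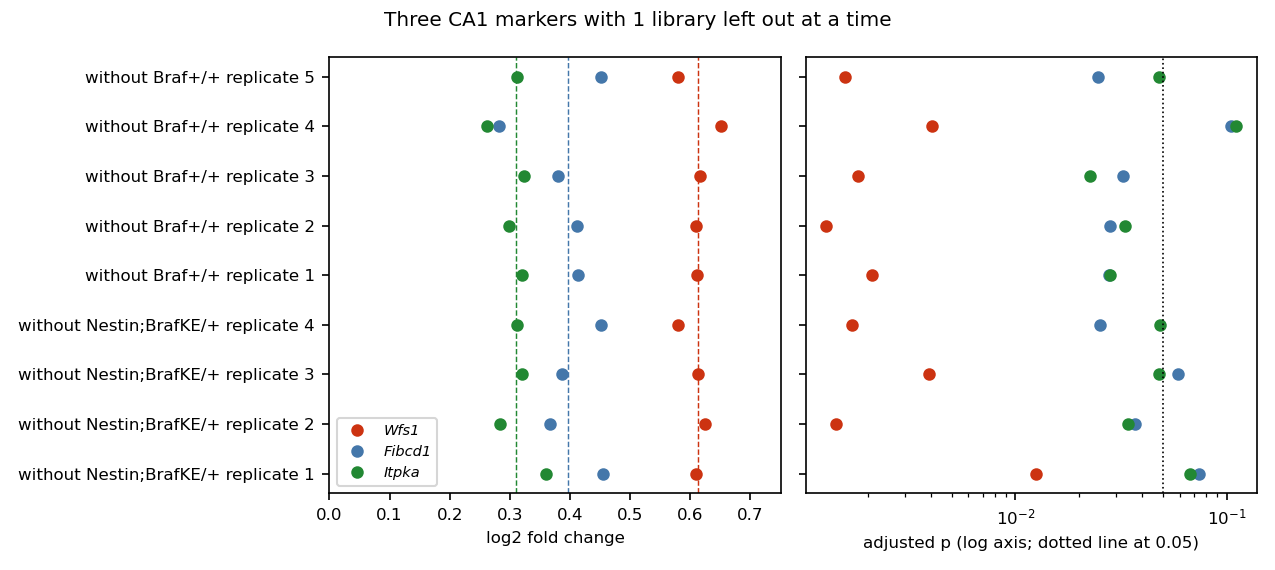
Log2 fold change (left, dashed lines at the values with all 9 libraries) and adjusted p (right, log axis, dotted line at 0.05) of Wfs1, Fibcd1 and Itpka in limma fits that leave out 1 library. Wfs1 stays to the left of 0.05 in every fit, whereas Fibcd1 crosses it in 3 and Itpka in 2.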

How the data were processed

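Stranded mRNA libraries of 9 mouse hippocampi were processed by the authors with TrimGalore, STAR (GRCm39, Gencode vM28) and Salmon (nf-core). Batches, not named in the sources used here, were then adjusted for, and the values were normalised with DESeq2. The deposited signal is a normalised count per gene and library. In each library 100% of values are whole multiples of 1 step (0.9934 to 1.004; tolerance 0.01 of a step), but the whole number of mt-Co1 was 491938 in all 9, so these are not reads. Depth is unknown, no count model was run, and precision comes from the spread between libraries. That spread was measured after the authors' batch adjustment, which may have narrowed it, so standard errors and p-values may be too small. This was not tested.

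Genes whose value averaged 10 or more over the 9 libraries entered limma (version 3.58.1, with lmFit and eBayes with trend, under R 4.3.3) on log2(value + 1), with genotype and series as terms. The series are the common starts of library names and may not be the authors' batches. Permutation tests are two-sided and exact. Tables and figures were made with pandas 2.3.3, matplotlib 3.10.9 and Python 3.11.15, and the fit was tested on simulated data. Gene positions are from Gencode vM39 (GRCm39), and upstream windows from RefSeq (GRCm38.p6).

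The members, lists and tests were chosen with earlier results of these data known. All 10 members are named. Genes of the other lists are named where they passed the threshold or where a sentence on a list needed their values, and the 3 genes most like Wfs1 by Pearson r. The 26 alternatives were other pseudocounts (0.5 and 8), filters (none, or a mean of 50), scalings and model settings, 3 covariates, 9 fits without 1 library and 1 fit without 2, added after the data had been seen. The values of 1 gene of the other CA1 list are not reported here.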

Additional observations from a re-analysis of the deposited data

Results flagged for a closer look

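Over the 10 members and the 15 lists, 50 groups of values were looked at for a library far from the others of its genotype, and 3 had one. Chance alone gives this in about 1 in 20 groups. None of the 3 was a single CA1 marker. The summed normalised count of the excitatory neuron list was 156211 in Nestin;BrafKE/+ replicate 2, the highest of its group, that of the neocortex list was 1957 in Braf+/+ replicate 4, and that of the choroid plexus list was 391566 in Braf+/+ replicate 2. In the fits that leave each of these libraries out, Wfs1, Fibcd1 and Itpka all passed without Nestin;BrafKE/+ replicate 2 or Braf+/+ replicate 2. Without Braf+/+ replicate 4 only Wfs1 passed. That library was the only control of series B, so the last fit loses the contrast of the whole series and does not measure the part of 1 library.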

How the results depend on the processing

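All 7 alternatives that changed a pseudocount, a filter on low values, the scaling (TMM, quantile) or used robust eBayes left 3 members past the threshold, as did array weights, the replicate block, no series term and scaling to the excitatory neuron list. The count was 1 with eBayes without trend (Wfs1, with Fibcd1 at 0.113 and Itpka at 0.1096 by limma), 2 with 4 name prefixes (Itpka at 0.0573) and 0 with the other CA1, dentate granule or oligodendrocyte list as covariate, limma fits in which 0 of all genes passed and 1201, 841 and 930 had an unadjusted p under 0.05. There the log2 fold change of Wfs1 was 0.67, 0.64 and 0.64, with standard errors of 0.103, 0.137 and 0.0977. The count of members was 1 to 3 in the fits without 1 library. Genes past the threshold, 466 as reported, numbered 2260 without the series term, 1405 with the replicate block, 305 relative to the excitatory neuron list, 258 with array weights, 165 with prefixes, 72 without trend, 58 without Braf+/+ replicates 2 and 4, and 42 to 371 without 1 library. The deviations of same-numbered libraries correlated at -0.45, -0.21, 0.05 and 0.41, which cannot decide whether the numbers pair the samples. Same-numbered libraries other than replicate 1 lie in different series by name. Scaling to the excitatory neuron list moved the median of all genes by 0.11. Of the 466 genes 246 were higher, and of those 305 genes 266. Members that changed sign were never past the threshold. Pou3f1 was -0.088 with prefixes, -0.39, -0.0544 and -0.23 with the other CA1, dentate and oligodendrocyte covariates, -0.12 without Braf+/+ replicates 2 and 4, and -0.064 to 0.0534 without 1 library. Man1a was -0.30 with the dentate covariate and -0.0337 to 0.35 without 1 library. Dkk3 was 0.0909 relative to the excitatory list, 0.16 and 0.0263 with the dentate and oligodendrocyte covariates, and -0.0443 to 0.0186 without 1 library. Nr2f2 was 0.34, 0.15 and 0.31 with the other CA1, dentate and oligodendrocyte covariates and 0.10 without Braf+/+ replicates 2 and 4. The cause was not tested. Leaving out either library of series C leaves no contrast within that series. The same holds for Nestin;BrafKE/+ replicate 1 in series A and for Braf+/+ replicate 4 in series B.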
